A study of Mus musculus with 3 samples.

Results

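The kinesins are a family of motor proteins, and their genes were taken as every row of the expression table whose symbol starts with Kif and a digit. The rule gave 38 of 23393 genes. Of these, 12 encode motors of mitosis, 15 encode motors of transport, 6 encode motors or regulators of the cilium, and 4 encode other motors, with 1 pseudogene (Kif4-ps). Levels are given for all of them, and ratios for the 29 whose levels averaged 50 or more across the libraries. That minimum left 11 mitotic, 13 transport and 4 cilium genes and 1 other motor gene. Kif1c, with levels of 59 to 65, was the member just inside it, and Kif19a, with levels of 33 to 59, the member just outside.

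RNA was measured in 3 populations of bone marrow cells from C57BL/6 mice, each sorted by flow cytometry from LSK cells, which lack lineage markers and carry Sca-1 and c-Kit. GFP+ HSCs were CD48-negative, CD150-positive hematopoietic stem cells in which a GFP reporter for Map17 (the gene Pdzk1ip1) was on. GFP- HSCs came from the same gate with the reporter off. Multipotent progenitors (MPPs) were CD48-positive and CD150-negative, with the reporter off. Each population had 1 library, with no replicates. Every difference below therefore compares single libraries, without a test, an error or a p-value. The sources used here do not state the age or number of the mice, or any pooling.

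Kinesins walk along microtubules or shorten them, with energy from ATP. One group acts in dividing cells, where its members push spindle poles apart, move chromosomes, trim microtubule ends and build the midzone on which a cell splits. These genes are known to be transcribed mainly in the late part of the cell cycle. Another group carries vesicles, mitochondria and protein complexes through cells that are not dividing, and its subunit that binds the microtubule often works with light chains or adaptors that hold the cargo. Most blood stem cells of adult marrow rest outside the cell cycle, while multipotent progenitors divide more often.

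The labels were checked on genes of the gates. Slamf1, which encodes CD150, stood at 2219 in GFP+ HSCs and 2144 in GFP- HSCs, against 17 in MPPs. Cd48 stood at 64 in GFP+ HSCs and 168 in GFP- HSCs, against 7744 in MPPs. Kit and Ly6a, which encode c-Kit and Sca-1, stood at 1767 or more in every library. Pdzk1ip1 stood at 5659 in GFP+ HSCs, against 3673 in GFP- HSCs and 290 in MPPs. The values are the authors' normalized counts, called levels here, and summed to between 25311805 and 26689660 per library after the authors' scaling, so the depth is unknown. Some marker genes of other cells differed as well. Of 7 neutrophil genes, all were higher in GFP+ than in GFP- HSCs, where 51.7% of all genes past the minimum were. Their summed levels were 1680 in GFP+ HSCs and 752 in GFP- HSCs, against 795 in MPPs. The 5 megakaryocyte genes summed to 5327 in GFP+ HSCs, 9324 in GFP- HSCs and 1813 in MPPs, most of it Itga2b. Ppbp alone among the 5 was highest in MPPs, at 83 in GFP+ HSCs, 70 in GFP- HSCs and 227 in MPPs. The 6 erythroid genes summed to 715 in GFP+ HSCs, 1018 in GFP- HSCs and 395 in MPPs, with Hbb-b1 and Hba-a1 listed at 0 in all. The 4 B cell genes summed to 896 in GFP+ HSCs, 765 in GFP- HSCs and 1291 in MPPs, most of it Cd79b, with Ms4a1 listed at 0 in both stem cell fractions. The 4 T cell genes summed to 371 in GFP+ HSCs, 401 in GFP- HSCs and 1812 in MPPs, nearly all of it Lck, with Cd3e and Cd3g listed at 0 in both stem cell fractions. The 6 stromal and endothelial genes summed to 3577 in GFP+ HSCs, 3392 in GFP- HSCs and 6580 in MPPs, most of it Pecam1 and Pdgfrb, with Lepr and Cdh5 at 0 to 10. Among them, Col1a1 stood at 294 in GFP+ HSCs, 22 in GFP- HSCs and 17 in MPPs, and Col1a2 at 679 in GFP+ HSCs, 457 in GFP- HSCs and 28 in MPPs. The part of such cells in the kinesin levels was not tested.

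Mitotic motors were lower in both stem cell fractions than in progenitors, and lower in GFP+ than in GFP- HSCs. All of the 11 mitotic genes past the minimum had their lowest level in GFP+ HSCs, a middle level in GFP- HSCs and their highest level in MPPs. Among all 11951 genes past the minimum, 32.5% had that order. Ratios are given as log2 of level + 5 in one library over level + 5 in the other, and folds of single genes as ratios of their levels. The median log2 ratio of the 11 was -0.58 in GFP+ over GFP- HSCs, -1.29 in GFP- HSCs over MPPs and -1.87 in GFP+ HSCs over MPPs, beside medians of 0.011, -0.010 and 0.013 over all genes. Transport motors had medians of 0.079, 0.05 and 0.18. In bulk RNA, fewer cells in division and less of these transcripts per cell cannot be told apart.

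The motors that set up the spindle showed the order at every step. Kif11, which slides microtubules of opposite poles apart and so separates them, stood at 2524 in GFP+ HSCs, 3731 in GFP- HSCs and 9227 in MPPs. It was 1.48-fold lower in GFP+ than in GFP- HSCs and GFP- HSCs were 2.47-fold below MPPs. Kif15, which in human cells helps to keep the spindle bipolar, stood at 833 in GFP+ HSCs, 1451 in GFP- HSCs and 3862 in MPPs. Its difference between the stem cell fractions, 1.74-fold, was wider than that of Kif11.

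Among the motors on chromosome arms, Kif22 stood at 1220 in GFP+ HSCs, 1826 in GFP- HSCs and 4242 in MPPs. Kif22 pushes chromosome arms toward the middle of the spindle. Kif4, which acts on chromosome structure with condensin and on the length of midzone microtubules, stood at 825 in GFP+ HSCs, 1324 in GFP- HSCs and 3176 in MPPs. It was 1.60-fold lower in GFP+ than in GFP- HSCs. Kif4 shares 15.1% of its annotated exon bases with Pdzd11 on the other strand, and since the libraries carry no strand, reads from there cannot be assigned to either gene. Pdzd11 itself stood at 855 in GFP+ HSCs, 913 in GFP- HSCs and 1151 in MPPs, a smaller difference than that of Kif4.

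The motors that shorten or cap microtubule ends followed the same order. Kif2c, which removes tubulin from microtubule ends at faulty attachments of chromosomes, stood at 631 in GFP+ HSCs, 950 in GFP- HSCs and 2661 in MPPs. Kif18a, which damps the movements of chromosomes at the spindle's middle, stood at 696 in GFP+ HSCs, 968 in GFP- HSCs and 1785 in MPPs. Kif18b, which in human cells controls the length of the microtubules that reach the cell cortex, stood at 949 in GFP+ HSCs, 1430 in GFP- HSCs and 3341 in MPPs. Kif2c was 2.80-fold lower in GFP- HSCs than in MPPs, the lowest ratio of the 11 in that comparison, and Kif18a only 1.84-fold lower. Kif2b, a further member of the class, was listed at 0 in all libraries.

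In the 2 comparisons of GFP+ HSCs, the motors of cytokinesis held both the widest and the narrowest mitotic differences. Kif14, which in human cells recruits citron kinase to the site of cleavage, stood at 94 in GFP+ HSCs, 178 in GFP- HSCs and 455 in MPPs. It was 1.89-fold lower in GFP+ than in GFP- HSCs and 4.84-fold lower in GFP+ HSCs than in MPPs, the lowest ratios of the class in these 2 comparisons. Its partner Cit, the gene of citron kinase, stood at 680 in GFP+ HSCs, 1159 in GFP- HSCs and 2357 in MPPs, and so followed the same order. Kif23, the motor of the complex that bundles the midzone with Racgap1, stood at 1829 in GFP+ HSCs, 2241 in GFP- HSCs and 5474 in MPPs. Between the stem cell fractions it was lower by just 1.23-fold, while against MPPs the GFP- HSCs were 2.44-fold lower. Kif20a, which carries proteins of the chromosomal passenger complex to the midzone, stood at 1741 in GFP+ HSCs, 2500 in GFP- HSCs and 6410 in MPPs. It shares 29.3% of its exon bases with Cdc23 on the other strand. Cdc23, a subunit of the anaphase-promoting complex, was nearly level, at 4638 in GFP+ HSCs, 4460 in GFP- HSCs and 5310 in MPPs. Kif20b, which acts in the last steps of cell separation, stood at 1270 in GFP+ HSCs, 1581 in GFP- HSCs and 2518 in MPPs and had the narrowest range of the 11, at 1.98-fold between GFP+ HSCs and MPPs.

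**Figure D1:**
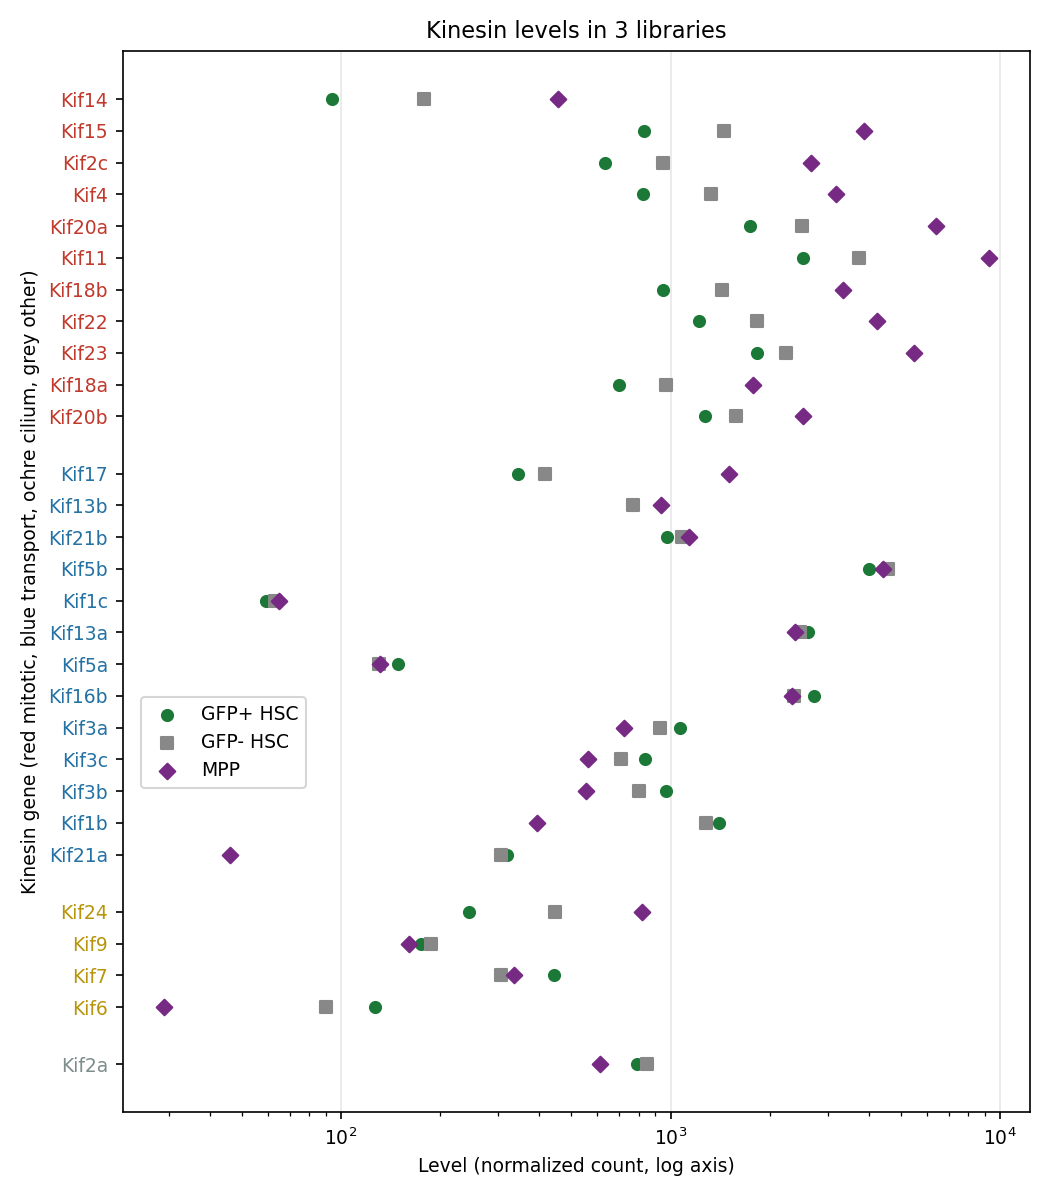
Levels of the 29 kinesin genes past the minimum (horizontal axis, normalized counts on a log scale) in GFP+ HSCs (circles), GFP- HSCs (squares) and MPPs (diamonds), 1 library each, grouped by class. The 11 mitotic genes all run from circle to square to diamond, as for Kif11 at 2524 in GFP+ HSCs, 3731 in GFP- HSCs and 9227 in MPPs, whereas most transport genes lie within a narrow range and some symbols overlap.

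Counted by size, 5 of the 11 mitotic genes were at least 1.5-fold lower in GFP+ than in GFP- HSCs on the log2(level + 5) scale, where 3.0% of all genes were (358 of 11951). They were Kif14, Kif15, Kif4, Kif18b and Kif2c, and of these Kif18b and Kif2c were barely past the threshold, both at -0.59, while Kif22 and Kif11, at -0.58 and -0.56, were just short of it. None of the 11 was at least 2-fold lower, against 0.870% of all genes. With a pseudocount of 20 in place of 5, the count was 3. All 11 were lower there by any amount, as were 47.8% of all genes, and their log2 ratios ran from -0.89 to -0.29. In GFP- HSCs against MPPs, 11 of 11 were lower (50.6% of all genes), all 11 were at least 1.5-fold lower, where 13.4% of all genes were, and 9 were at least 2-fold lower, where 5.53% were. The exceptions to the 2-fold count were Kif18a and Kif20b. In GFP+ HSCs against MPPs, 11 of 11 were lower (49.2% of all genes), all of them by 1.5-fold or more (17.9% of all genes) and 10 at least 2-fold lower (8.60% of all genes). Any 2 of the 3 comparisons share a library, so they are not independent of each other.

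The promoters of the mitotic genes were read for letters they share. RefSeq promoters of GRCm38.p6, from 250 bases before to 50 after the transcript start, were found for 31 of the 38 genes and not for Kif21b, Kif5a, Kif19a, Kif4-ps, Kif13b, Kif5b and Kif20a. The motif TTTGAA is the core of the cell cycle genes homology region (CHR), an element known from promoters of genes of G2 phase and mitosis and bound by complexes that contain MuvB. It was searched on both strands, so that TTCAAA on the gene's strand counts as well. Of the 10 mitotic genes past the minimum with a promoter, 9 held it, against 17.9% of all 32851 promoters and 14.1% of the 8994 genes past the minimum with a promoter. Of 9 such transport genes and 4 such cilium genes, 0 held it. Below the minimum, Kif1a, Kif26b and Kif27 held it and Kif2b did not.

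The stretches from 60 bases before to 30 after the start (GRCm38.p6, each 5′ to 3′ on the gene's strand) are shown because the match fell there in 7 mitotic genes, against 4.62% of all promoters; that stretch was chosen after the matches were seen. Capitals mark the match, and the 61st base is the first base of the RefSeq transcript. Kif18a and the transport gene Kif1b are shown for comparison, as promoters with no match.
Kif11 (chr19:37376322-37376411, plus strand): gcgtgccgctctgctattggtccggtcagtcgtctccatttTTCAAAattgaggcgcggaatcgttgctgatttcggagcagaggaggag
Kif15 (chr9:122951021-122951110, plus strand): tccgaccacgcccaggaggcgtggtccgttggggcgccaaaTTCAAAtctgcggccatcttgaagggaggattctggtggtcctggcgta
Kif22 (chr7:127042391-127042480, minus strand): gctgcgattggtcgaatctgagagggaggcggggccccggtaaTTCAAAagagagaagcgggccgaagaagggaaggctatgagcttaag
Kif4 (chrX:100626005-100626094, plus strand): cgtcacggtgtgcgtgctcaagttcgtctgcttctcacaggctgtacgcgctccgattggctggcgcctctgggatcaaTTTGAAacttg
Kif23 (chr9:61946770-61946859, minus strand): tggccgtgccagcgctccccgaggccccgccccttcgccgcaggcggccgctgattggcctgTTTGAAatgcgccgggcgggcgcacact
Kif18b (chr11:102925095-102925184, minus strand): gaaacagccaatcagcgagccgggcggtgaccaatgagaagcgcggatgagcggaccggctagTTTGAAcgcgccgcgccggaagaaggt
Kif20b (chr19:34922298-34922387, plus strand): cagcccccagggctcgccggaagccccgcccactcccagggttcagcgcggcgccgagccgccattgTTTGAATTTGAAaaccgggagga
Kif18a (chr2:109280678-109280767, plus strand): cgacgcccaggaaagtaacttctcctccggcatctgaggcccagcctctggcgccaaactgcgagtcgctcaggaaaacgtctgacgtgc
Kif1b (chr4:149307704-149307793, minus strand): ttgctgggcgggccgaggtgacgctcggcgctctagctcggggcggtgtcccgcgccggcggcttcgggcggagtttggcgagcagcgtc
In Kif11 and Kif15 the match began 19 bases before the start and in Kif22 17 bases before it, each on the other strand. In Kif23, Kif18b, Kif20b and Kif4 it lay on the gene's strand after the start, at its bases 3, 4, 8 and 20, and Kif20b held a further match at base 14. Kif15 and Kif22 also held a match more than 200 bases upstream. Kif2c (103 bases before) and Kif14 (228 bases before) held it only farther from the start. For these 2 genes the RefSeq start lies 3867 and 1505 bases inside the outermost start in GENCODE, so their windows do not cover that outermost start. The same holds for Kif17, by 11816 bases, Kif27, by 4175, and Kif4, by 328. The match of Kif1a lies only in the window of a start 19471 bases inside, and not in that of its start 77 bases inside.

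The motif CCAAT, which NF-Y binds, was searched in the same way on both strands. Of genes past the minimum with a promoter, 6 of the 10 mitotic and 3 of the 9 transport genes held it. Beside them, CCAAT was present in 37.4% of all promoters and in 43.1% of all such genes. It shared no base with TTTGAA in any Kif promoter. Kif24, a cilium gene that followed the mitotic order of levels, held 4 copies of CCAAT and no TTTGAA. Of 19 spindle partner genes past the minimum with a promoter, 12 held TTTGAA, where 14.1% of all such genes did. CCAAT was held by 15 of the 19, where 43.1% of all such genes held it. Over the 8994 genes past the minimum with a promoter, the median log2 ratio of GFP+ over GFP- HSCs was -0.009 in the 1270 with TTTGAA and 0.010 in the 7724 without it. For GFP- HSCs over MPPs these medians were -0.065 and -0.009. A match of letters is not a measured binding site.

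**Figure D2:**
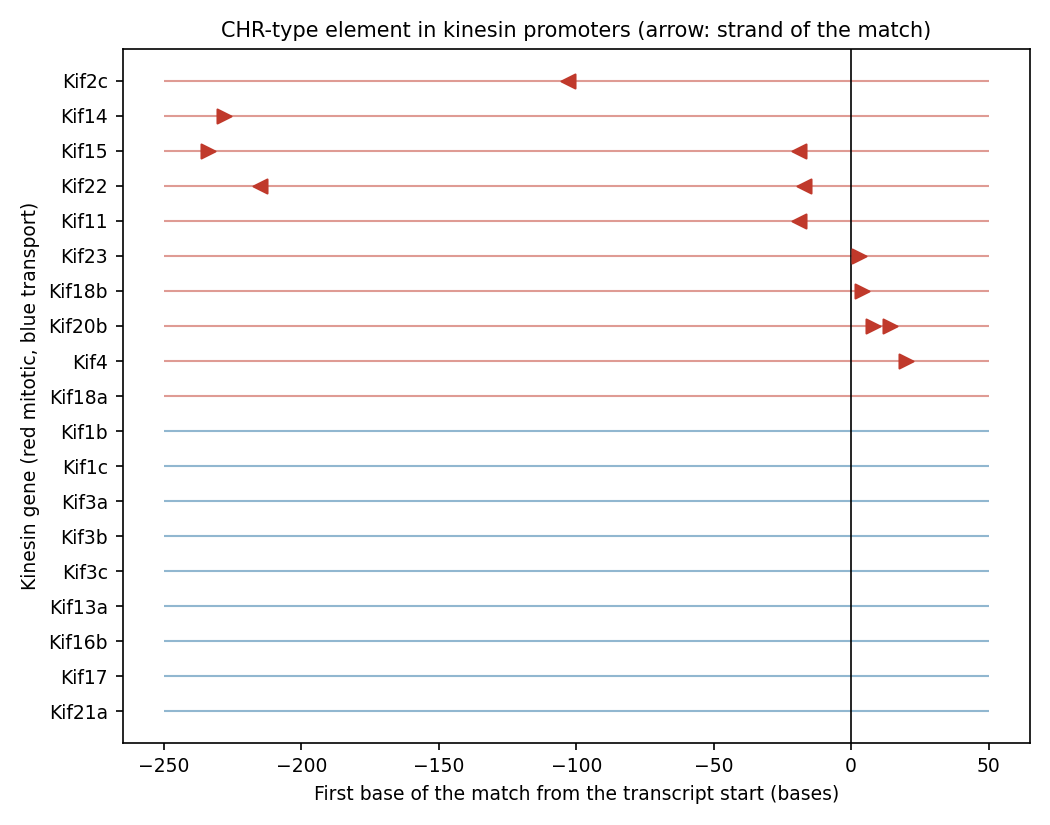
First base of each TTTGAA match (triangles, pointing right on the gene's strand and left on the other) relative to the RefSeq transcript start, in bases, for mitotic (red) and transport (blue) kinesins past the minimum with a promoter. Matches of 7 mitotic genes lie between 19 bases before and 20 bases after the start, and no transport gene has one. Kif15 and Kif22 have another match farther upstream, and Kif2c and Kif14 have theirs only farther upstream.

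Transport motors as a class were level across the 3 libraries, with single members apart. Of the 13 past the minimum, 8 were higher in GFP+ than in GFP- HSCs (51.7% of all genes) and 5 lower. Among them, 0 were at least 1.5-fold apart between GFP+ and GFP- HSCs in either direction, where 2.44% of all genes were higher and 3.0% lower, and 0 were 2-fold higher, as 0.410% of all genes were. Their log2 ratios ran from -0.27 to 0.27, with a median of 0.079. In GFP- HSCs against MPPs the median was 0.05, with 2 genes past 1.5-fold (19.3% of all genes) and past 2-fold (11.6%) in the higher direction, and 1 past 1.5-fold in the lower direction (13.4%). In GFP+ HSCs against MPPs it was 0.18. Of the 13, 8 were higher there (50.7% of all genes), 3 by 1.5-fold or more (22.3%) and 2 by 2-fold or more (13.7%), and 1 was lower by 1.5-fold or more (17.9%). After a correction for transcript length and GC, the medians against MPPs were -0.14 in GFP- HSCs and -0.076 in GFP+ HSCs. Without that correction, means in place of medians were 0.26 in GFP- HSCs and 0.31 in GFP+ HSCs. No direction of the class against MPPs is therefore given.

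The conventional motor carries a wide range of cargo. Kif5b, its ubiquitous heavy chain, stood at 4016 in GFP+ HSCs, 4563 in GFP- HSCs and 4407 in MPPs. Its other heavy chains are known mainly from neurons. Kif5a stood at 149 in GFP+ HSCs, 130 in GFP- HSCs and 131 in MPPs, and Kif5c at 22 in GFP+ HSCs, 15 in GFP- HSCs and 3 in MPPs. The light chain gene Klc1 was level too, at 1723 in GFP+ HSCs, 1755 in GFP- HSCs and 1700 in MPPs. The other light chain genes were less even. Klc4 stood at 1145 in GFP+ HSCs, 826 in GFP- HSCs and 823 in MPPs. Klc3 stood at 358 in GFP+ HSCs, 343 in GFP- HSCs and 229 in MPPs, and Klc2 at 200, 217 and 166 in that order.

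The motors that move cargo along cilia and in the cytoplasm as a complex of 2 motor subunits and Kifap3 showed small differences in the direction opposite to mitotic genes. Kif3a stood at 1067 in GFP+ HSCs, 929 in GFP- HSCs and 723 in MPPs. Kif3b stood at 967 in GFP+ HSCs, 801 in GFP- HSCs and 553 in MPPs, the widest step of the 3 motor genes, at 1.75-fold between GFP+ HSCs and MPPs. Kif3c stood at 837 in GFP+ HSCs, 706 in GFP- HSCs and 560 in MPPs. Kifap3, the subunit that links the motors to cargo, had the same order at 1022 in GFP+ HSCs, 933 in GFP- HSCs and 833 in MPPs. Among all genes, 33.8% were highest in GFP+ and lowest in MPPs, and no step of these genes between the stem cell fractions reached 1.5-fold. Kif3c shares 35.3% of its exon bases with the antisense gene 1110002L01Rik, which stood at 307 in GFP+ HSCs, 260 in GFP- HSCs and 206 in MPPs.

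Kif17, which works in cilia and carries receptor vesicles in neurons, had the lowest ratios of its class against MPPs. It stood at 344 in GFP+ HSCs, 416 in GFP- HSCs and 1508 in MPPs, with GFP+ HSCs 4.38-fold below MPPs. Kif13b, Kif21b and Kif1c were lower in both fractions than in MPPs too, with log2 ratios of -0.29 or nearer to 0. In GFP+ HSCs over MPPs, the log2 ratio of Kif17, -2.12, lay within the range of the mitotic motors (-2.22 to -0.985). In GFP- HSCs over MPPs its ratio of -1.85 was below the lowest of them, -1.48 for Kif2c. The difference of Kif17 between the stem cell fractions was 1.21-fold. Kif17 shares 74 exon bases, 1.62% of its own, with Sh2d5 on the same strand. Sh2d5, a neighbour with an SH2 domain, stood at 453 in GFP+ HSCs, 963 in GFP- HSCs and 4679 in MPPs. Its part in the level of Kif17 was not tested.

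Transport motors of a further subfamily, which carry vesicles and mitochondria, included a gene much higher in stem cells. Kif1b, which moves mitochondria and synaptic vesicle precursors, stood at 1406 in GFP+ HSCs and 1278 in GFP- HSCs, against 394 in MPPs. Its level in GFP+ HSCs was 3.57-fold that of MPPs and 1.10-fold that of GFP- HSCs. Kif13a, which carries endosomes and melanosomes, was level at 2609 in GFP+ HSCs, 2469 in GFP- HSCs and 2385 in MPPs. Kif16b, an endosome motor that binds membrane lipids, stood at 2731 in GFP+ HSCs, 2368 in GFP- HSCs and 2342 in MPPs. Kif13b, which binds the scaffold Dlg1, stood at 764 in GFP+ HSCs, 767 in GFP- HSCs and 938 in MPPs. The neuronal motor gene Kif1a was at 17 and 21 in GFP+ and GFP- HSCs and listed at 0 in MPPs, and the vesicle motor gene Kif1c stood at 59 in GFP+ HSCs, 63 in GFP- HSCs and 65 in MPPs.

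Kif21a and Kif21b, a pair of paralogs that restrain microtubule growth at the cell cortex and in axons, differed from each other. Kif21a stood at 320 in GFP+ HSCs and 306 in GFP- HSCs, against 46 in MPPs. Among the kinesins past the minimum it had the highest ratio against MPPs, 6.96-fold for GFP+ HSCs and 6.65-fold for GFP- HSCs. Between the fractions it differed by just 1.05-fold. Kif21b, known from lymphocytes as well as neurons, was slightly lower in stem cells, at 976 in GFP+ HSCs and 1084 in GFP- HSCs, against 1138 in MPPs. Kif21a and the cilium gene Kif6 were the only members past the minimum with a level under 50 in one of the libraries, and both entered through the stem cell libraries.

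**Figure D3:**
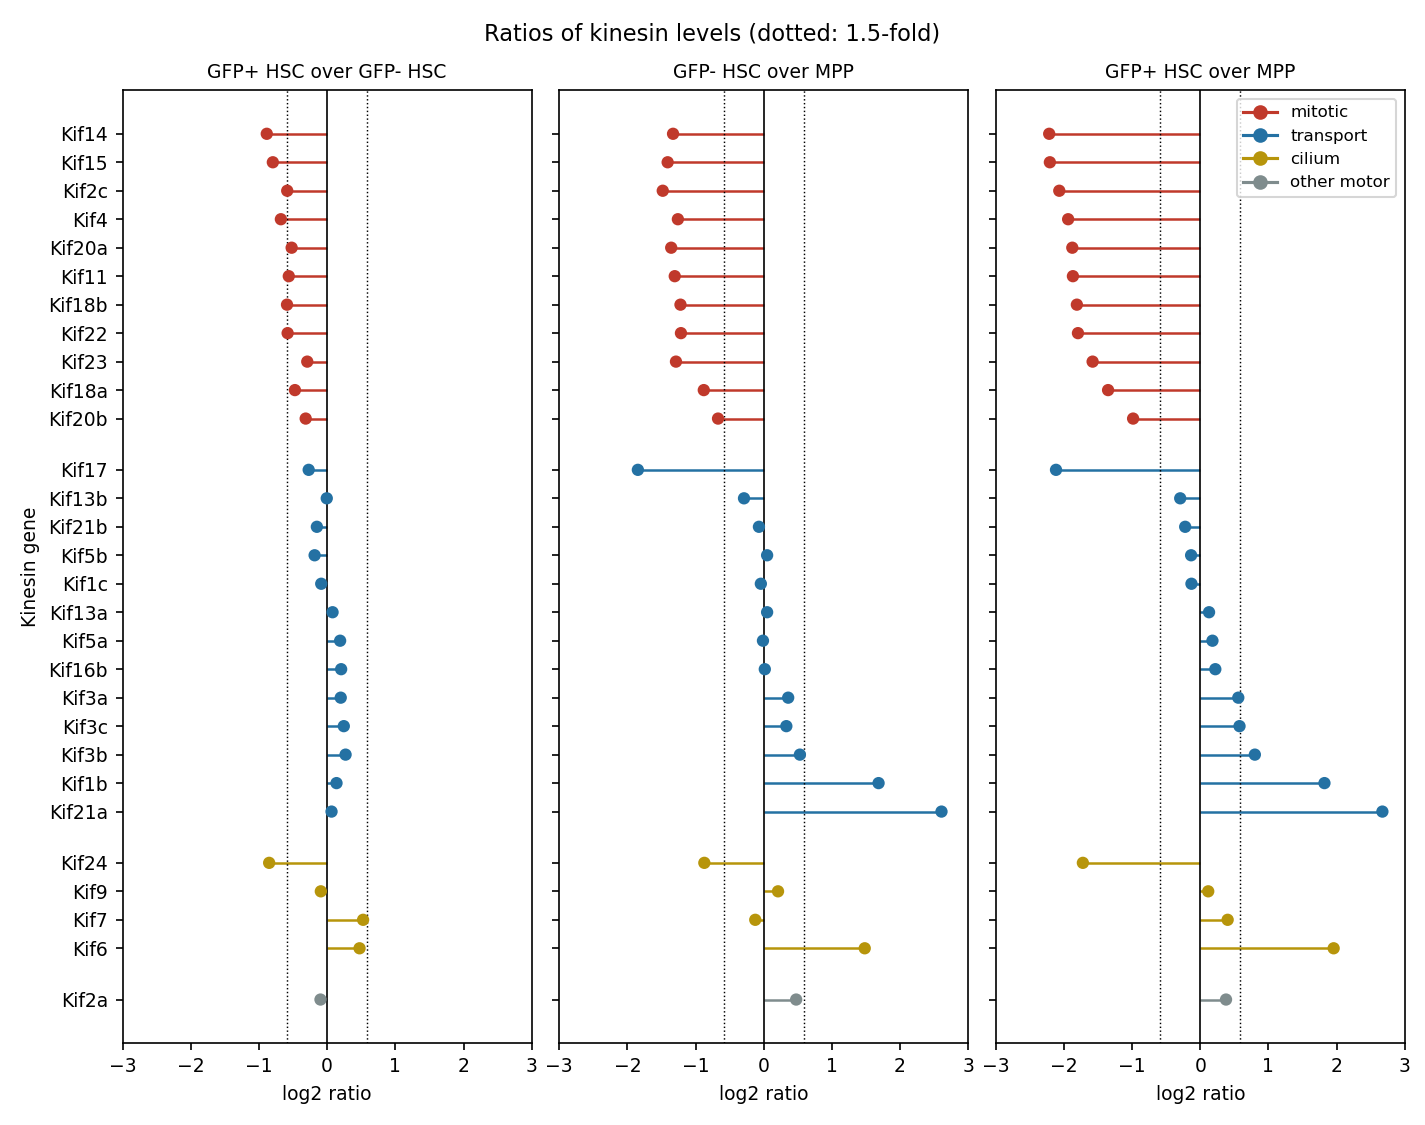
Log2 ratios of level + 5 for the 29 kinesin genes in 3 comparisons, with lines from 0, 1 library per population and dotted lines at 1.5-fold. Mitotic genes (red) lie left of 0 throughout, and transport genes (blue) lie within 0.27 of 0 between the stem cell fractions but spread from -2.12 for Kif17 to 2.67 for Kif21a against MPPs.

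Of the cilium genes, Kif24 behaved unlike the others. Kif24, which in human cells shortens microtubules at the centriole and holds back cilium growth, stood at 245 in GFP+ HSCs, 446 in GFP- HSCs and 820 in MPPs. It was 1.82-fold lower in GFP+ than in GFP- HSCs, a ratio that 1.18% of all genes reached or passed on the log2 scale, and its level in MPPs was 3.35-fold that in GFP+ HSCs. Kif7, a regulator of Hedgehog signalling at the cilium tip, stood at 443 in GFP+ HSCs, against 306 in GFP- HSCs and 334 in MPPs, and was 1.45-fold higher in GFP+ than in GFP- HSCs. Kif7 shares 19.1% of its exon bases with 9330171B17Rik and 1.11% with Ticrr, both on the other strand. Ticrr, which starts DNA replication, stood at 802 in GFP+ HSCs, 1224 in GFP- HSCs and 2518 in MPPs. Kif6 stood at 127 in GFP+ HSCs, 90 in GFP- HSCs and 29 in MPPs, with GFP+ HSCs at 4.38-fold the level of MPPs. Kif9, a motor of the sperm flagellum in mice, was nearly level at 175 in GFP+ HSCs, 187 in GFP- HSCs and 161 in MPPs. Kif19a, which sets cilium length, stood at 59 in GFP+ HSCs, 37 in GFP- HSCs and 33 in MPPs, and Kif27 at 19 in GFP+ HSCs, 6 in GFP- HSCs and 0 in MPPs. The cilium genes past the minimum therefore went in both directions.

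The other motor past the minimum was Kif2a, which shortens microtubules both at spindle poles and in resting cells such as neurons. It did not follow the mitotic genes, standing at 793 in GFP+ HSCs, 849 in GFP- HSCs and 609 in MPPs. The level of Kif2a in GFP+ HSCs was 1.30-fold that of MPPs, whereas its relative Kif2c was lower there by 4.22-fold. Kif2a shares 19.2% of its exon bases with Dimt1 on the other strand, which stood at 557 in GFP+ HSCs, 583 in GFP- HSCs and 602 in MPPs. Each opposite-strand overlap of Kif22, Kif18a and Kif5b, which has 2, covered 2.28% of exon bases or less. Of the remaining members, Kif26a, Kif26b and Kif4-ps had levels of 0 to 10, and Kif12 was listed at 0 throughout.

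The makeup of the kinesin transcripts was compared per kilobase of the longest GENCODE transcript, since longer transcripts give more reads. Mitotic motors summed to 3066 per kilobase in GFP+ HSCs, 4405 in GFP- HSCs and 10600 in MPPs. Transport motors summed to 2621 in GFP+ HSCs, 2557 in GFP- HSCs and 2595 in MPPs, and so hardly differed between libraries. Mitotic motors held 50.3% of the summed level per kilobase in GFP+ HSCs, 59.8% in GFP- HSCs and 78.0% in MPPs. Transport motors held 43.0% in GFP+ HSCs, 34.7% in GFP- HSCs and 19.1% in MPPs.

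The order of single motors on that scale depended on the length used. In GFP+ HSCs, Kif5b was first at 666 per kilobase, followed by Kif23 at 538 and Kif11 at 524. In MPPs, Kif11 was first at 1915, followed by Kif20a at 1745 and Kif23 at 1611, and Kif5b came eighth at 731. In GFP- HSCs, Kif11 (774) and Kif5b (757) were close together, and with 1 library each their order cannot be set against an error. Per kilobase of the median transcript length, an alternative added after the data were seen, Kif13a came first in GFP+ HSCs (3711) and in GFP- HSCs (3512), and Kif23 in MPPs (7803). With the longest transcript, Kif17 held 3.80% of the summed transport level per kilobase in GFP+ HSCs and 4.71% in GFP- HSCs, against 16.8% in MPPs. The share of Kif1b was 5.24% in GFP+ HSCs and 4.88% in GFP- HSCs, against 1.48% in MPPs. With the median length, Kif17 held 1.38% in GFP+ HSCs and 1.69% in GFP- HSCs, against 6.37% in MPPs, and Kif1b held 5.10% in GFP+ HSCs and 4.70% in GFP- HSCs, against 1.5% in MPPs. The mitotic share of all kinesins was 52.2% in GFP+ HSCs, 60.7% in GFP- HSCs and 78.4% in MPPs with that length.

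**Figure D4:**
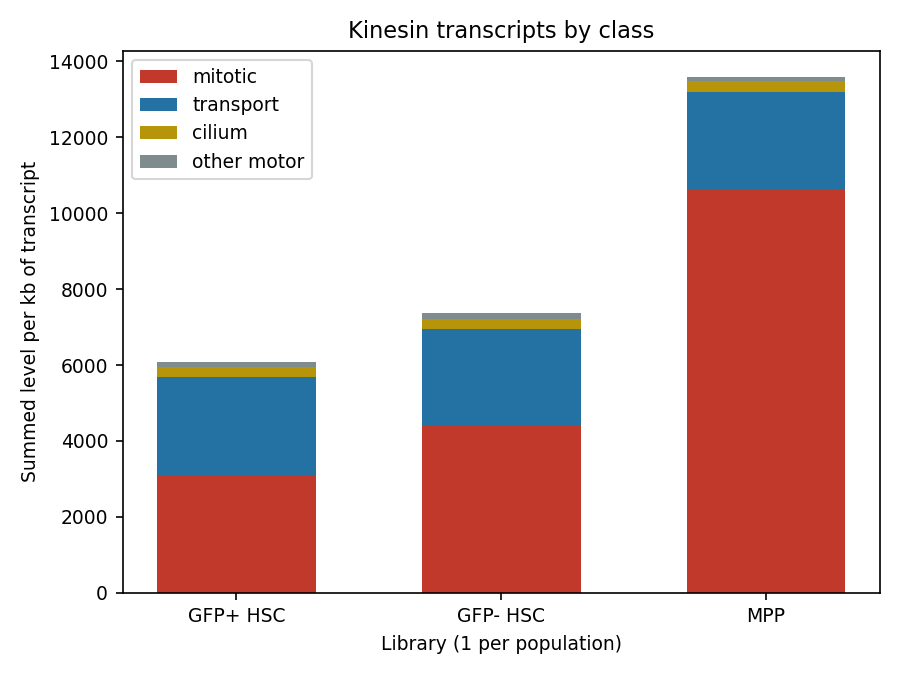
Summed level per kilobase of transcript of mitotic (red), transport (blue), cilium (ochre) and other (grey) kinesin genes in each library, 1 per population. The mitotic part is 3066 in GFP+ HSCs, 4405 in GFP- HSCs and 10600 in MPPs, while the transport part stays between 2557 and 2621.

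The median log2 ratio of mitotic motors minus that of transport motors was -0.66 in GFP+ over GFP- HSCs, -1.34 in GFP- HSCs over MPPs and -2.05 in GFP+ HSCs over MPPs. Between the stem cell fractions the ranges of the classes nearly met, with the highest mitotic ratio at -0.29 (Kif23) and the lowest transport ratio at -0.27 (Kif17). Of all genes, 10.5% were at or below the ratio of Kif23 and 11.8% at or below that of Kif17. With 1 library each, so small a gap cannot be set against an error. Against MPPs the ranges overlapped through Kif17 alone, since without it the lowest transport ratio in GFP- HSCs over MPPs was -0.29 (Kif13b), above the highest mitotic ratio of -0.67 (Kif20b).

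Genes that work with the motors were read as lists. Of 24 spindle partners, 23 were lower in GFP+ than in GFP- HSCs, where 47.8% of all genes were, and 10 were at least 1.5-fold lower (3.0% of all genes). Their medians of -0.54 in GFP+ over GFP- HSCs and -1.25 in GFP- HSCs over MPPs were near those of the mitotic motors. Gtse1, which inhibits Kif2c in human cells, stood at 367 in GFP+ HSCs, 660 in GFP- HSCs and 1660 in MPPs. Ect2, the exchange factor that starts the contractile ring, stood at 1124 in GFP+ HSCs, 1573 in GFP- HSCs and 5311 in MPPs, and Hmmr, a spindle protein, at 1018 in GFP+ HSCs, 1435 in GFP- HSCs and 3935 in MPPs. The exception was Numa1, which gathers microtubules at the spindle poles and is a nuclear protein between divisions, at 16019 in GFP+ HSCs, 14681 in GFP- HSCs and 13575 in MPPs.

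Of 4 kinesins with other names past the minimum, 3 had the order of the mitotic motors (32.5% of all genes) and Kifc2 the opposite one (33.8%). Kifc1, under 50 in both stem cell fractions, and Kifc3, under 50 in GFP+ HSCs, passed the minimum through the MPP library. That count is therefore a description. Cenpe, the kinetochore motor, stood at 826 in GFP+ HSCs, 1357 in GFP- HSCs and 3076 in MPPs, 1.64-fold lower in GFP+ than in GFP- HSCs. Kifc1, which gathers spindle poles, stood at 38 in GFP+ HSCs, 45 in GFP- HSCs and 184 in MPPs, with its near-identical copy Kifc5b at 25 in GFP+ HSCs, 29 in GFP- HSCs and 47 in MPPs, so reads may be divided between them. Kifc2 was higher in stem cells, at 158 in GFP+ HSCs, 142 in GFP- HSCs and 53 in MPPs. Kifc3, a motor of epithelial junctions that points to the minus end, stood at 36 in GFP+ HSCs, 61 in GFP- HSCs and 154 in MPPs.

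Light chains and cargo adaptors mostly differed little. Of 17 past the minimum, 15 were higher in GFP- HSCs than in MPPs, where 49.2% of all genes were. Mapk8ip1 and Fez1 were the 2 at least 1.5-fold higher, where 19.3% of all genes were. Both have levels under 50 in MPPs and passed the minimum through the stem cell libraries, as Dync1i1, Ift43 and Tubb1 below did, so that count is a description. Trak1, an adaptor of mitochondria, was lower in stem cells, at 2435 in GFP+ HSCs, 2513 in GFP- HSCs and 3244 in MPPs, as was Arl8b, a small GTPase of lysosomes, at 3990 in GFP+ HSCs, 4042 in GFP- HSCs and 5043 in MPPs. Mapk8ip1, a scaffold that links cargo to the conventional motor, stood at 173 in GFP+ HSCs, 121 in GFP- HSCs and 44 in MPPs. Fez1, an adaptor known from axons, stood at 128 in GFP+ HSCs and 59 in GFP- HSCs and was listed at 0 in MPPs. Of 23 dynein and dynactin genes past the minimum, the motor that runs toward the opposite microtubule end, the medians were -0.031 between the stem cell fractions and 0.025 in GFP- HSCs over MPPs. Dync1i1 (122 in GFP+ HSCs, 58 in GFP- HSCs and 3 in MPPs) and Bicd1 (1429 in GFP+ HSCs, 1290 in GFP- HSCs and 566 in MPPs) were higher in stem cells, and Dynll1 (883 in GFP+ HSCs, 1289 in GFP- HSCs and 2613 in MPPs) was lower.

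Tubulins form the track on which the motors walk. Of 14 tubulin genes past the minimum, 13 were lower in GFP+ than in GFP- HSCs (47.8% of all genes), with a median log2 ratio of -0.22. Against MPPs, 11 of 14 were lower in each fraction, with medians of -0.34 in GFP- HSCs (50.6% of all genes lower) and -0.66 in GFP+ HSCs (49.2% lower). Tubb5 had the order of the mitotic motors, at 9153 in GFP+ HSCs, 12775 in GFP- HSCs and 22851 in MPPs, as did Tuba1b, at 2400 in GFP+ HSCs, 2963 in GFP- HSCs and 5634 in MPPs. Tubulin genes are close copies of each other, so their reads may be divided among them. Tuba8 (383 in GFP+ HSCs, 858 in GFP- HSCs and 253 in MPPs) and Tubb1 (88 in GFP+ HSCs, 101 in GFP- HSCs and 25 in MPPs), a tubulin of platelets, had their highest level in GFP- HSCs. The summed megakaryocyte markers given above, mostly Itga2b, did too. Tuba1a stood at 478 in GFP+ HSCs, 811 in GFP- HSCs and 906 in MPPs. The 19 intraflagellar transport genes had medians of 0.062 between the stem cell fractions and 0.065 in GFP- HSCs over MPPs. Ift81 (656 in GFP+ HSCs, 498 in GFP- HSCs and 407 in MPPs) and Traf3ip1 (418 in GFP+ HSCs, 322 in GFP- HSCs and 348 in MPPs) were highest in GFP+ HSCs. Ift43 (109 in GFP+ HSCs, 105 in GFP- HSCs and 22 in MPPs) and Dync2li1 (486 in GFP+ HSCs, 539 in GFP- HSCs and 351 in MPPs) were lowest in MPPs.

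**Figure D5:**
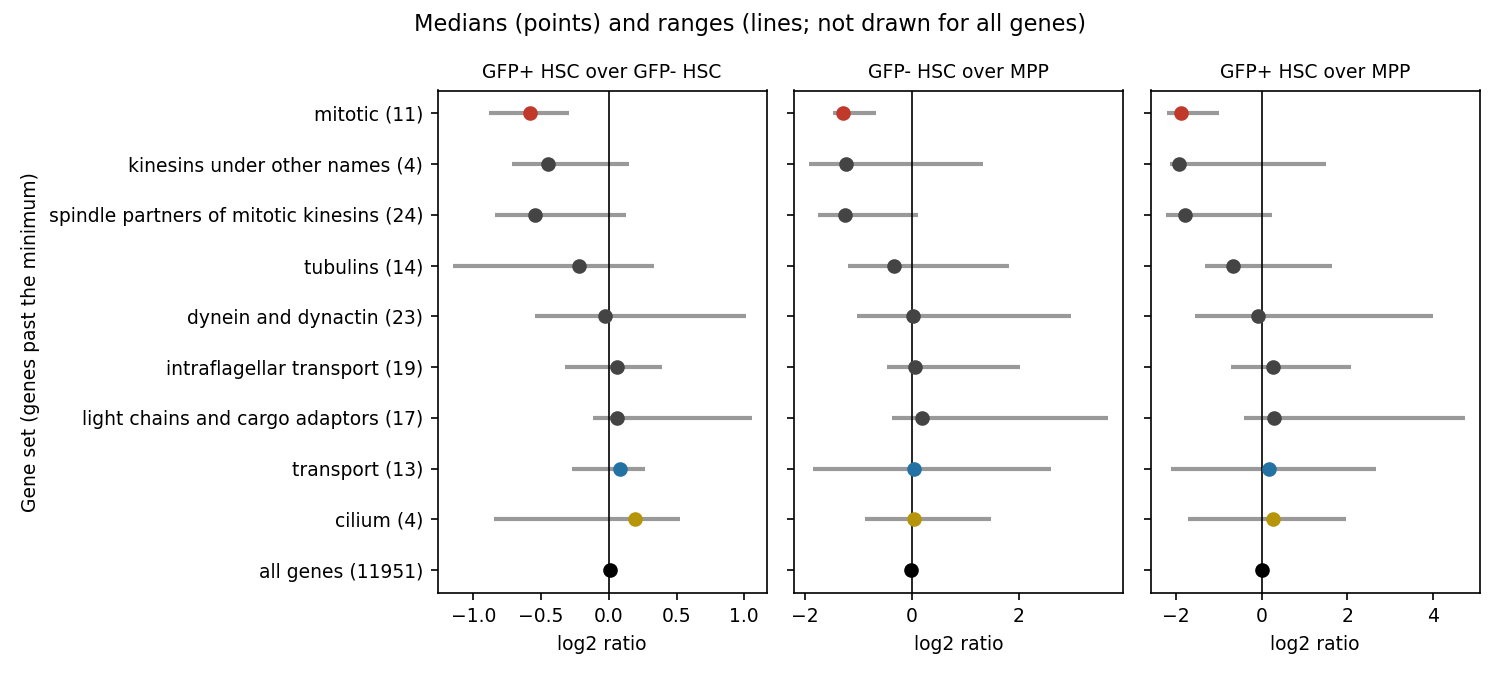
Median (points) and range (lines) of the log2 ratio for mitotic, transport and cilium kinesins and for the lists of accompanying genes, with the number of genes past the minimum and the median of all 11951 genes (black), in 3 comparisons of 1 library each. Mitotic kinesins and spindle partners have medians of -0.58 and -0.54 between the stem cell fractions, and transport kinesins lie near 0.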

How the data were processed

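Per the labels' protocols, cDNA was made from sorted cells with a SMART-seq kit for low RNA input. Such a kit amplifies by PCR, without molecular identifiers, and does not mark the strand. The submitters' processing notes name STAR, DESeq2 and mm10, without versions, annotation or counter. The deposited table holds the authors' normalized counts as whole numbers, and it was treated as a score, since reads could not be recovered, the depth is unknown and no counting error could be given. Of 23420 rows, 27 carried a date in place of a symbol and were left out. A level listed at 0 need not mean absence.

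Ratios were log2 of (level + 5) in both libraries; folds of single genes are ratios of levels. Genes whose mean reached 50 were compared, 11951 in all. No test was possible with single libraries. Classes, lists and the 1.5-fold threshold were chosen with earlier results of these data known. All 29 kinesins past the minimum were named, and from each accompanying list the genes with the widest ratios (2 each for GFP+ over GFP- HSCs and for GFP- HSCs over MPPs); Cdc23, Numa1, Trak1, Arl8b, Tubb5, Tuba1b and other partners and markers were chosen after their values were seen. Coordinates, lengths and exon overlaps came from GENCODE M21 (GRCm38, the same assembly as mm10), and promoters from RefSeq. The calculation was tested on simulated data, and 17 other settings were tried. Python 3.11.15, numpy 2.4.6, pandas 2.3.3, statsmodels 0.14.6 and matplotlib 3.10.9 were used.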

Additional observations from a re-analysis of the deposited data

Results flagged for a closer look

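The effects of the 2 stem cell fractions against MPPs had opposite signs for 3 kinesin genes, a difference that was not tested. The share of all genes with opposite signs was not counted, so the 3 are a description. For Kif7 the log2 ratio over MPPs was 0.40 in GFP+ HSCs and -0.12 in GFP- HSCs, a difference of 0.53. For Kif5a these ratios were 0.18 and -0.01, a difference of 0.19, and for Kif5b they were -0.13 and 0.05, a difference of -0.18. Both ratios share the MPP library, so each difference is that of the GFP+ from the GFP- library.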

How the results depend on the processing

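All values rest on 1 library per population and an unknown depth. No paired analysis was possible because each population had 1 library. Of 234 values under 17 settings, 212 stayed within 0.1 on the log2 scale, 1.5 times of a count or 5 percentage points. Mitotic medians and the differences between the classes kept their direction under every setting run. The number of mitotic genes at least 1.5-fold lower in GFP+ than in GFP- HSCs, 5, was 3 with a pseudocount of 20 and 0 at a 2-fold threshold. Against MPPs, the 11 became 7 in both fractions once genes that share exon bases with the other strand were left out, because 4 of 11 members were removed.

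Rescaling to the same upper quartile shifted the median of all genes by 0.11 and gave -1.18 for mitotic and 0.16 for transport genes in GFP- HSCs over MPPs. Removal of length and GC trends gave transport medians of -0.14 in GFP- and -0.076 in GFP+ HSCs over MPPs, where 0.18 turned to the opposite sign, with class differences of -1.22 and -1.83; the cause was not tested. Means gave transport values of 0.26 and 0.31 and, for GFP- HSCs, a class difference of -1.48. Transport genes at least 1.5-fold lower against MPPs, 1 in each fraction, numbered 0 without Kif17, 2 with the abundance trend removed, 2 with motors under other names added and, in GFP+ HSCs with length and GC trends removed, 3. Between the stem cell fractions, adding those motors gave 1 in place of 0. Leaving out Kif17, leaving out overlapping genes and ranking single genes by median transcript length were chosen after the data were seen.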
